A study of Homo sapiens with 12 samples.

Results

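The kinases that phosphorylate the splicing machinery were followed as 8 genes chosen by name: the CDC2-like kinases CLK1, CLK2, CLK3 and CLK4, the SR protein kinases SRPK1 and SRPK2, and the related kinases DYRK1A and PRPF4B. All 8 were found among the 14698 genes analysed. They were measured by RNA sequencing in T98-G, an established glioblastoma cell line, which was kept for 48 h in 4 conditions of 3 libraries each. The conditions were DMSO in normoxia (0.1% DMSO, 20% oxygen), DMSO in hypoxia (0.1% DMSO, 1% oxygen), onametostat in normoxia (1 µM, 20% oxygen) and onametostat in hypoxia (1 µM, 1% oxygen). Onametostat inhibits the arginine methyltransferase PRMT5, and all libraries come from a single line, so no other line or tumour is covered. The replicates are separate experiments according to the study's methods.

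SR proteins are splicing factors with repeats of arginine and serine, and they bring the spliceosome to exons. SRPK1 and SRPK2 phosphorylate these repeats mainly in the cytoplasm, after which the importer transportin-SR carries the proteins into the nucleus. The CLK kinases add further phosphates in nuclear speckles and release SR proteins to sites of transcription. DYRK1A is a nuclear kinase encoded on chromosome 21 that also phosphorylates SR proteins, and PRPF4B phosphorylates components of the tri-snRNP while the spliceosome is assembled. PRMT5 methylates, among other proteins, the Sm proteins at the core of the spliceosome, and the CLK transcripts are known for introns that stay in polyadenylated RNA in the nucleus.

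A gene-level count holds reads of every transcript of a gene. For the CLK genes this includes transcripts that keep introns 3 and 4 or skip exon 4, between them. In the GENCODE annotation 8 of 14 CLK1 transcripts, 8 of 27 CLK3 transcripts and 7 of 13 CLK4 transcripts are of the retained intron type, against 0 of 7 for CLK2, 4 of 13 for SRPK1, 2 of 15 for SRPK2, 4 of 23 for DYRK1A and 1 of 9 for PRPF4B. Retained intron transcripts of CLK1, CLK3 and CLK4 hold intron 3 or intron 4, and intron 4 of CLK2 is held by a transcript without a defined coding sequence. At least 1 annotated transcript of each CLK gene skips exon 4. That exon is shown here because it is shared by all 4 CLK genes and because its use cannot be read from the counts, with the exon in capitals and 20 bases of each neighbouring intron in lower case, 5′ to 3′, in GRCh38:
CLK1: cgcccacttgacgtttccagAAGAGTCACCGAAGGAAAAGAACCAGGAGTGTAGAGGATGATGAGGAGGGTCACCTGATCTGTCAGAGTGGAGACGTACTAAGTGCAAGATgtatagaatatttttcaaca
CLK4: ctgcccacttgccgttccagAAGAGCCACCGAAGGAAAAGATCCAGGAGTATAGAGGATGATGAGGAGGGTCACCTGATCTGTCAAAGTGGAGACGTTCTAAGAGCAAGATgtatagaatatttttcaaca
CLK2: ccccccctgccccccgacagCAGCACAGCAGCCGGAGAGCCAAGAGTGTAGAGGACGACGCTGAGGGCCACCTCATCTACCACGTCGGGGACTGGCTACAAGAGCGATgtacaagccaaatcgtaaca
CLK3: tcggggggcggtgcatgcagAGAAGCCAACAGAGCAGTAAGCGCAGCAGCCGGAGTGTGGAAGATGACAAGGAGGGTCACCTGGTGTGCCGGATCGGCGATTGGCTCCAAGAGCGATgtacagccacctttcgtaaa

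The exons are coding and lie at chr2:200860125-200860215 on the minus strand (CLK1, 91 bases), chr5:178617344-178617434 on the minus strand (CLK4, 91 bases), chr1:155268708-155268795 on the minus strand (CLK2, 88 bases) and chr15:74622120-74622216 on the plus strand (CLK3, 97 bases). Each length leaves 1 base over a multiple of 3, so a transcript without the exon changes reading frame. Exon 4 of CLK1 and of CLK4 was identical at 85 of 91 bases, and the other pairs of CLK exons at 62.6% to 66.3% of aligned positions. All 4 exons end in the same 3 bases, GAT, and intron 4 opens with gta in each.

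The total count of a library ranged from 403279 to 45977729, and the lowest total was that of library 3 of onametostat in hypoxia, where 2978 genes had no count and 1 count was worth 2.48 CPM (counts scaled to the total of a library). In that library the kinases had between 4 counts (CLK1) and 94 counts (PRPF4B). The exact 95% Poisson interval of each of the 8 kinases there held the mean of libraries 1 and 2 of the same condition, an interval that covers counting error only. Over all genes, however, this library stood apart from its group beyond counting error: the chi-square divided by its degrees of freedom was 81.2 against library 1 and 46.0 against library 2, and 1.93 to 8.30 for every other pair of libraries within a condition. Its TMM factor was 0.922, against 0.985 to 1.03 in the other libraries, and results that rest on it are given with and without it. The study lists more filtered reads for this library than for library 2 of the same condition, which had 7641280 counts. It thus had few counts rather than few reads, and why was not tested. Of 7 glioblastoma markers, VIM, CD44 and FN1 were among the genes analysed, with VIM at 1236 to 1493 CPM in every library. NES, CHI3L1, SOX2 and GFAP were not among them, so the markers do not serve as a check of the line's identity. The 6 markers of other cells were not among the genes analysed here. Of 12 genes known to respond to low oxygen, 5 rose and 1 fell in hypoxia with DMSO, where 14.1% of all genes rose and 13.9% fell by the test described next. With onametostat, 0 rose and 4 fell, against 7.69% and 6.16% of all genes. The median log2 fold change of these 12 genes in hypoxia was 0.06 with DMSO and -0.15 with onametostat. Their median thus lay near 0 with DMSO, although 5 of the 12 rose there, and below 0 with onametostat, where 4 fell. Levels below are CPM scaled with TMM factors, a normalization that sets the bulk of genes equal between libraries. Differences are log2 fold changes from edgeR's quasi-likelihood test over all 12 libraries, p-values are adjusted with the Benjamini-Hochberg method over the 14698 genes, and a gene is said to have risen or fallen only where the adjusted p was under 0.05. In bulk RNA, a change in the RNA of each cell and a change in the share of cells that express a gene cannot be told apart.

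Treatment with onametostat in normoxia raised 6 of the 8 kinases and lowered 1. PRPF4B rose 2.14-fold, DYRK1A, CLK1 and CLK2 rose by 1.34-fold to 1.38-fold, CLK4 and CLK3 rose less, SRPK1 fell, and SRPK2 did not pass the test. Over all genes 56.5% passed the test in this comparison, 27.2% with a higher level and 29.3% with a lower one. The median log2 fold change was 0.36 over the 8 kinases and -0.01 over all genes. Levels of 7 kinases did not overlap between the groups, against 64.4% of all genes. In hypoxia, the same treatment raised 4 kinases (PRPF4B, DYRK1A, CLK2 and CLK3) and lowered 0, a share close to the 52.0% of all genes that passed, 25.6% with a higher level and 26.4% with a lower one. The median over the kinases was 0.23, and that over all genes was -0.01. Without library 3 of onametostat in hypoxia, CLK1 and CLK4 passed as well, which gives 6 higher and 0 lower, against 53.7% of all genes past the test. Levels of 6 kinases did not overlap between the groups in hypoxia, against 48.4% of all genes.

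**Figure D1:**
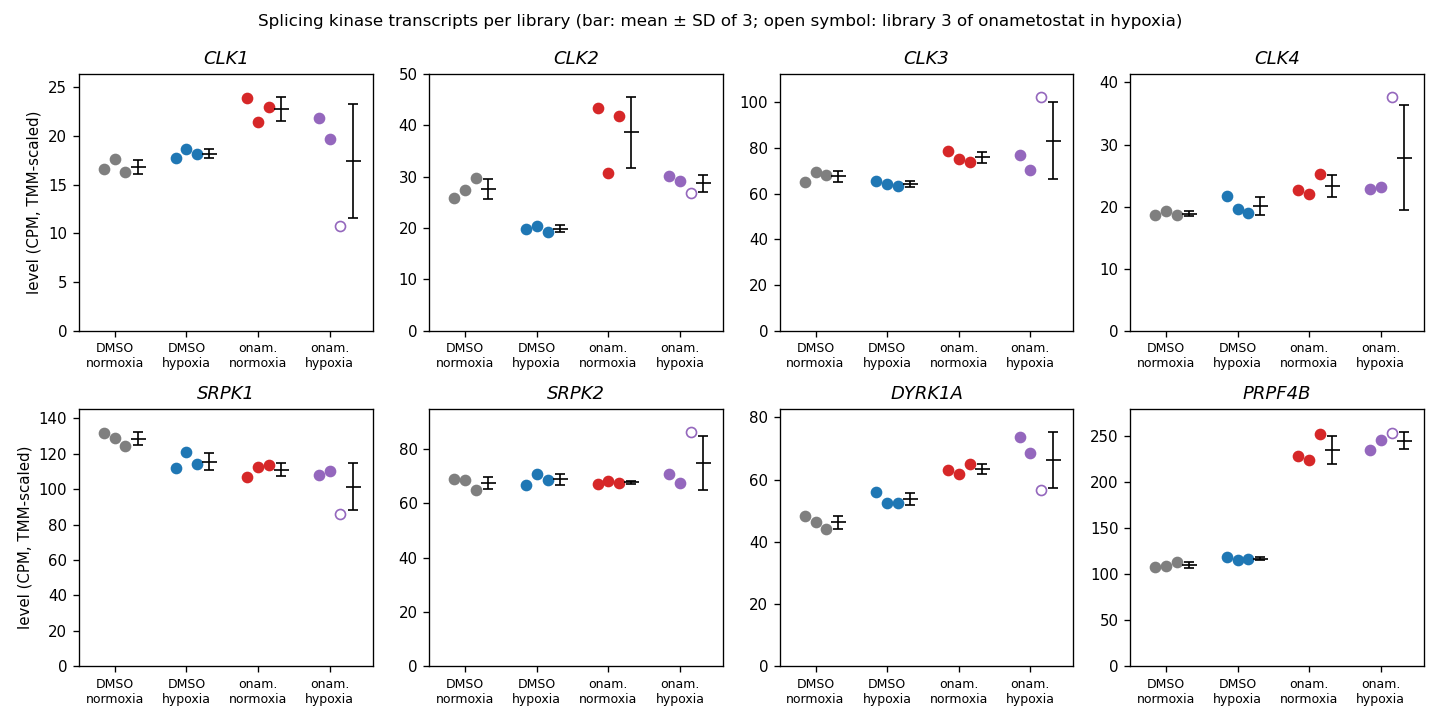
Levels of the 8 splicing kinases in each of the 12 libraries (CPM, linear axes from 0), by condition, with the mean and SD of 3 libraries beside the points and library 3 of onametostat in hypoxia as an open symbol. PRPF4B sits at 107 to 118 CPM in the DMSO libraries and at 224 to 253 CPM in the onametostat libraries, while SRPK2 stays between 64.9 and 70.8 CPM in the 11 libraries with filled symbols.

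PRPF4B (ENSG00000112739, chr6:4021267-4064983, plus strand) encodes the tri-snRNP kinase and changed most. Its level was 107, 109 and 113 CPM with DMSO in normoxia and 229, 224 and 252 CPM with onametostat in normoxia. In hypoxia it was 118, 115 and 116 CPM with DMSO and 235, 246 and 253 CPM with onametostat. Every treated library was above every control library at both oxygen levels. The log2 fold change was 1.10 (SE 0.046, adjusted p = 9.93e-12) in normoxia, where PRPF4B had the 27th smallest p-value of 14698 genes. In hypoxia it was 1.05 (SE 0.049, adjusted p = 8.43e-11), the 19th smallest p-value. Leaving out any single library kept the change between 1.04 and 1.13 in normoxia and between 1.03 and 1.08 in hypoxia. PRPF4B was the single kinase with an absolute log2 fold change above 1, a size that 6.11% of genes reached together with the adjusted p in normoxia and 7.51% in hypoxia. For hypoxia against normoxia its log2 fold change was 0.09 with DMSO (95% interval -0.01 to 0.18, adjusted p = 0.178). Every hypoxia library with DMSO was above every normoxia library with DMSO, and 45.3% of all genes were likewise without overlap. With onametostat the value was 0.04 (-0.06 to 0.15, adjusted p = 0.644), and the libraries overlapped.

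DYRK1A (ENSG00000157540, chr21:37365573-37526358, plus strand) rose with onametostat at both oxygen levels. It had 48.3, 46.4 and 44.1 CPM with DMSO in normoxia and 63.2, 61.9 and 65.0 CPM with onametostat in normoxia. In hypoxia it had 56.1, 52.6 and 52.6 CPM with DMSO and 73.7, 68.7 and 56.5 CPM with onametostat. The lowest of these last values is library 3, which rests on 21 counts, and it was just above the highest DMSO library. The log2 fold change was 0.45 (SE 0.048, adjusted p = 5.00e-07) in normoxia and 0.40 (SE 0.054, adjusted p = 9.47e-06) in hypoxia. DYRK1A was also the single kinase that rose in hypoxia with DMSO, by 0.21 (SE 0.048, adjusted p = 0.00289). With onametostat the hypoxia effect was 0.16 (adjusted p = 0.0556) with all libraries and 0.18 (adjusted p = 0.0252) without library 3.

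**Figure D2:**
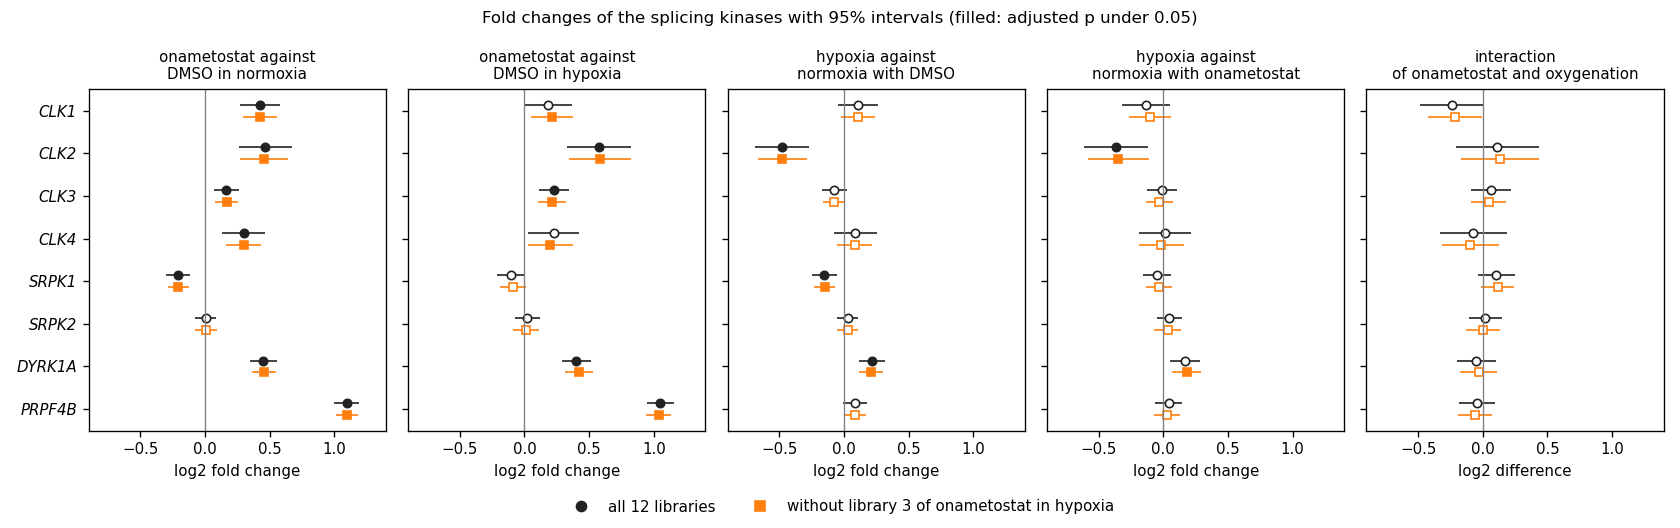
Log2 fold changes of the 8 kinases (points) with 95% intervals (lines) in the 4 comparisons, and the interaction of treatment and oxygenation, for all 12 libraries (circles) and without library 3 of onametostat in hypoxia (squares), with filled symbols for an adjusted p under 0.05. PRPF4B stands at 1.10 and 1.05 in the treatment comparisons, CLK2 lies below 0 in both hypoxia comparisons, and no kinase has a filled symbol for the interaction.

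Among the CLK genes, CLK2 (ENSG00000176444, chr1:155262868-155278491, minus strand) responded both to the inhibitor and to oxygen. It had 25.9, 27.4 and 29.8 CPM with DMSO in normoxia and 43.4, 30.7 and 41.9 CPM with onametostat in normoxia. With DMSO in hypoxia it had 19.9, 20.5 and 19.2 CPM, below every other library, and with onametostat in hypoxia 30.2, 29.1 and 26.9 CPM. Library 2 of onametostat in normoxia was the lowest of its group, yet above all DMSO libraries. The rise with onametostat was 0.47 (SE 0.098, adjusted p = 5.98e-04) in normoxia and 0.58 (SE 0.117, adjusted p = 5.22e-04) in hypoxia. In normoxia it lay between 0.38 and 0.62 when single libraries were left out, the upper end without library 2 of onametostat in normoxia.

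Hypoxia lowered CLK2 by 0.48 with DMSO (log2 fold change -0.48, SE 0.099, adjusted p = 0.00174). With onametostat the hypoxia effect was -0.37 (SE 0.116, adjusted p = 0.0445). This last call was lost with limma voom (adjusted p = 0.0662) and in a fit of the compared groups alone (adjusted p = 0.0997). It was also lost with the experiment number of the labels as a block, and in 6 of the 12 fits that leave out a library. Dropping both library 2 and library 3 of the hypoxic onametostat group leaves 1 library there, so no call is read from that fit. Without library 2 of onametostat in normoxia the effect was -0.52. The CLK2 levels of each treatment did not overlap between the oxygen levels. With DMSO 45.3% of all genes were likewise without overlap, and with onametostat 26.5%. With onametostat the gap was small, from 30.2 CPM in the highest hypoxia library to 30.7 CPM in the lowest normoxia library.

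CLK1 (ENSG00000013441, chr2:200853009-200864691, minus strand) rose in normoxia. It had 16.6, 17.6 and 16.2 CPM with DMSO and 23.9, 21.5 and 22.9 CPM with onametostat, a log2 fold change of 0.43 (SE 0.074, adjusted p = 1.09e-04). In hypoxia it had 17.7, 18.6 and 18.1 CPM with DMSO and 21.8, 19.7 and 10.8 CPM with onametostat. Libraries 1 and 2 of that last group were above the DMSO libraries, and library 3, with 4 counts, was below them all. The effect in hypoxia was 0.18 (95% interval 0.00 to 0.37, adjusted p = 0.0881), and 0.21 (adjusted p = 0.0282) without library 3. The difference between the effects at the 2 oxygen levels was -0.24 (95% interval -0.48 to 0.00) and did not pass the interaction test of edgeR (adjusted p = 0.382).

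CLK4 (ENSG00000113240, chr5:178602664-178630615, minus strand), the closest relative of CLK1 in exon 4, had 18.6, 19.3 and 18.6 CPM with DMSO in normoxia and 22.6, 22.0 and 25.3 CPM with onametostat in normoxia. The groups did not overlap, and the log2 fold change was 0.30 (SE 0.079, adjusted p = 0.00381). In hypoxia the values were 21.8, 19.7 and 19.0 CPM with DMSO and 22.9, 23.1 and 37.7 CPM with onametostat, the highest being library 3 with 14 counts. The change there was 0.23 (adjusted p = 0.0512), and 0.20 (adjusted p = 0.0441) without library 3.

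CLK3 (ENSG00000179335, chr15:74598500-74645414, plus strand) had the smallest rise of the CLK genes in normoxia. Its level was 64.9, 69.6 and 68.1 CPM with DMSO and 78.7, 75.2 and 73.9 CPM with onametostat, a log2 fold change of 0.17 (SE 0.047, adjusted p = 0.00613). The groups did not overlap, but DESeq2 gave an adjusted p of 0.0620, and the call was also lost when library 1 of either normoxia group was left out. In hypoxia it had 65.7, 64.0 and 63.2 CPM with DMSO and 76.9, 70.3 and 102 CPM with onametostat. The change was 0.23 (SE 0.055, adjusted p = 0.00202), 0.21 without library 3, and the call was lost without library 1 of onametostat in hypoxia (highest adjusted p = 0.0678). Neither CLK1, CLK3 nor CLK4 passed the test for hypoxia in either treatment.

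The SR protein kinases differed from the CLK genes. SRPK1 (ENSG00000096063, chr6:35832966-35921342, minus strand) had 132, 129 and 125 CPM with DMSO in normoxia, above all other libraries. It had 112, 121 and 114 CPM with DMSO in hypoxia, 107, 112 and 114 CPM with onametostat in normoxia, and 108, 110.4 and 86.1 CPM with onametostat in hypoxia. The fall with onametostat in normoxia was -0.21 on the log2 scale (SE 0.045, adjusted p = 7.68e-04), and the fall in hypoxia with DMSO was -0.15 (SE 0.045, adjusted p = 0.0176). The latter call was lost in 4 of the 12 fits that leave out a library, where the library left out was 1 or 2 from the normoxia controls or 1 or 3 from the hypoxia controls. In the comparison of onametostat with DMSO in hypoxia the value was -0.11 (95% interval -0.21 to 0.00, adjusted p = 0.0913). With other scaling it passed, at -0.12 (adjusted p = 0.0470) with RLE factors and -0.17 (adjusted p = 0.0143) with library sizes alone. Exons of LHFPL5 on the opposite strand share 28.1% of the exon bases of SRPK1. Counting did not use strand, so reads of these bases cannot be assigned, and LHFPL5 itself had 400 counts over all 12 libraries.

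SRPK2 (ENSG00000135250, chr7:105110704-105399308, minus strand) had 69.0, 68.6 and 64.9 CPM with DMSO in normoxia and 67.3, 68.3 and 67.5 CPM with onametostat in normoxia. In hypoxia it had 66.9, 70.8 and 68.7 CPM with DMSO and 70.6, 67.5 and 86.1 CPM with onametostat. All groups overlapped. The 95% intervals of its fold change were 0.95 to 1.06 and 0.95 to 1.09 for onametostat in normoxia and hypoxia, and 0.96 to 1.08 and 0.97 to 1.11 for hypoxia with DMSO and with onametostat. A change of the size seen for CLK1, CLK2, CLK4, DYRK1A or PRPF4B in normoxia lies outside the interval of SRPK2 in that comparison.

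Fewer kinases passed the test for oxygen than for the inhibitor, and the same held for all genes. For onametostat 56.5% of all genes passed in normoxia and 52.0% in hypoxia. In hypoxia with DMSO, 1 kinase rose (DYRK1A) and 2 fell (CLK2 and SRPK1), against 28.0% of all genes past the test, and with onametostat 0 rose and 1 fell (CLK2), against 13.9%. Without library 3 the latter count was 1 higher (DYRK1A) and 1 lower, against 15.5% of all genes. Levels of 5 kinases did not overlap between the oxygen levels with DMSO, against 45.3% of all genes. The medians over the kinases were 0.06 and 0.00. None of the 8 kinases passed the interaction test of edgeR, which 0.497% of all genes passed and which had an unadjusted p under 0.05 for 1937 genes. DESeq2 and limma voom also gave 0 kinases. A missed threshold does not show equal effects: the 95% interval of the difference was -0.21 to 0.43 for CLK2 and -0.18 to 0.10 for PRPF4B.

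**Figure D3:**
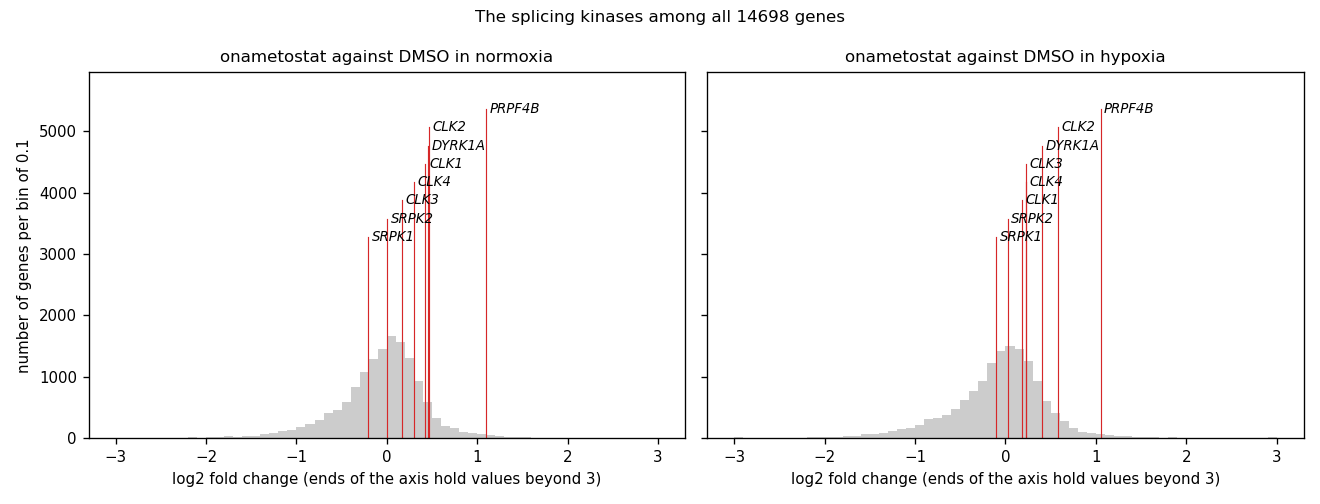
Distribution of the log2 fold change with onametostat over all 14698 genes (bars of width 0.1, number of genes) in normoxia and in hypoxia, with a red line at the value of each kinase. SRPK1 at -0.21 in normoxia and -0.11 in hypoxia is the single kinase left of 0, and PRPF4B at 1.10 and 1.05 lies in the right tail.

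The kinases with oxygen effects were CLK2, SRPK1 and DYRK1A. CLK2 and SRPK1 both fell with DMSO and have a single window each, so their promoter sequences were set side by side. Each window is 250 bases before a transcript start of RefSeq (GRCh38.p14), and both overlap the GENCODE span given above for the gene. Capitals mark the cores ACGTG and GCGTG of the element bound by hypoxia-inducible factors, on either strand, so that the reverse strand forms CACGT and CACGC are also in capitals. The windows lie at chr1:155273505-155273754 and chr6:35921099-35921348, both on the minus strand:
CLK2: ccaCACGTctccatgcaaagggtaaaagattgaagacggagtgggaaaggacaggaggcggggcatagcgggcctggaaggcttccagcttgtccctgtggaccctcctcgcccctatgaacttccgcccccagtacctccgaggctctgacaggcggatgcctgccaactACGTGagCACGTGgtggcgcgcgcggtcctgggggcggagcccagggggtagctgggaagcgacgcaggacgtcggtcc
SRPK1: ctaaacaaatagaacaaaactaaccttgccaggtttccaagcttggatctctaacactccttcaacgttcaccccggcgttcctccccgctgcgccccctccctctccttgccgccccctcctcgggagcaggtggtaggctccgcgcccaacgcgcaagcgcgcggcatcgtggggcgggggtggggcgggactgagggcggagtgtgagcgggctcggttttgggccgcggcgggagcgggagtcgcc

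The CLK2 window holds 4 matches to ACGTG over both strands, a pair of them from the palindrome CACGTG, and 0 to GCGTG. The SRPK1 window holds 0 of either. For DYRK1A, 1 window holds 3 matches to ACGTG and 1 to GCGTG, and each of its other windows holds 0 or 1 match in all. The CLK4 window has 2 matches to ACGTG and 1 to GCGTG, and both CLK1 windows have 2 to GCGTG. Whether these letters have a part in the response to oxygen was not tested. Of 35116 windows of all genes, 18.5% hold ACGTG, 32.2% hold GCGTG and 43.2% hold at least 1 of them, so a match is common and describes letters, not a bound site. Of the 8 kinases 7 had a window in the table, all except PRPF4B.

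Per length of exon sequence, the order of the kinases changed with treatment. With DMSO in normoxia SRPK1 had the highest level, at 19.2 ± 0.548 CPM per kb (SD, n = 3), followed by PRPF4B at 13.0 ± 0.355 and SRPK2 at 8.70 ± 0.293. CLK2 had 7.57 ± 0.532 CPM per kb, CLK3 3.43 ± 0.122, CLK1 3.29 ± 0.140, CLK4 2.38 ± 0.0489 and DYRK1A 1.73 ± 0.0793. The libraries of CLK3 and CLK1 overlapped, and all other neighbours in this order were apart. With onametostat in normoxia PRPF4B was first, at 27.9 ± 1.79 CPM per kb, above SRPK1 at 16.6 ± 0.526 in every library. These values divide by the bases of all annotated exons of a gene in GENCODE on GRCh38, which may not be the annotation used for counting. For SRPK1 they include the 28.1% shared with LHFPL5, so its level per kb may be too low. By the length of the canonical transcript CLK3, whose 27 transcripts cover 19697 exon bases, was first in every condition, so its place depends on the length used, while PRPF4B stayed below SRPK1 with DMSO and above it with onametostat by either length.

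Among the substrates of these kinases, some SR proteins rose with onametostat. Of 13 SR proteins measured, 7 rose and 1 (TRA2A) fell in normoxia, with a median log2 fold change of 0.19, and 9 rose and 0 fell in hypoxia, with a median of 0.31. Over all genes 27.2% rose and 29.3% fell in normoxia, 25.6% rose and 26.4% fell in hypoxia, and the median was -0.01 in both. The largest changes were those of SRSF11, SRSF4, SRSF7 and TRA2B. SRSF7, an SR protein that binds RNA through a zinc knuckle as well, had 192 ± 6.50 CPM with DMSO and 257 ± 4.26 CPM with onametostat in normoxia, and 160.4 ± 3.37 and 239 ± 9.39 CPM in hypoxia (SD, n = 3). Its log2 fold changes were 0.42 (adjusted p = 1.50e-07) and 0.58 (adjusted p = 1.16e-08). In hypoxia with DMSO 8 SR proteins fell and 0 rose, against 13.9% and 14.1% of all genes, with SRSF7 at -0.26 and SRSF1 at -0.22 the lowest, and with onametostat 0 passed in either direction, against 13.9% of all genes.

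Among 19 other proteins with arginine-serine repeats, 13 rose and 1 fell in normoxia with onametostat, and 16 rose and 1 fell in hypoxia, beside the 27.2% and 25.6% of all genes that rose. U2AF1, the small subunit of the factor that recognises the 3′ splice site, rose by 1.35 (SE 0.066) and 1.45 (SE 0.076) on the log2 scale. Its value is uncertain, since some genome releases carry a second copy of this gene with which reads would be shared. RBM39, which acts with U2AF in splice site choice, rose by 0.76 and 0.94, and SREK1 rose by 0.74 and 0.82. ZRANB2, a zinc finger splicing factor, was the gene that fell, by 1.27 and 1.20 on the log2 scale, from 157 ± 3.33 to 65.3 ± 5.72 CPM in normoxia. THRAP3 was the single gene of both lists to pass the interaction test, which 0.497% of all genes passed: it had 219 to 234 CPM in the 9 libraries of the other conditions and 303, 299 and 261 CPM with onametostat in hypoxia. That count depended on library 3 of onametostat in hypoxia: without it SRSF1, SRSF10 and TRA2B of the SR proteins and PNN beside THRAP3 also passed the interaction test, with differences of 0.24, 0.24, 0.20 and 0.26 on the log2 scale for SRSF1, SRSF10, TRA2B and PNN (adjusted p = 0.0243, 0.0202, 0.0480 and 0.0280, edgeR), against 1.25% of all genes.

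**Figure D4:**
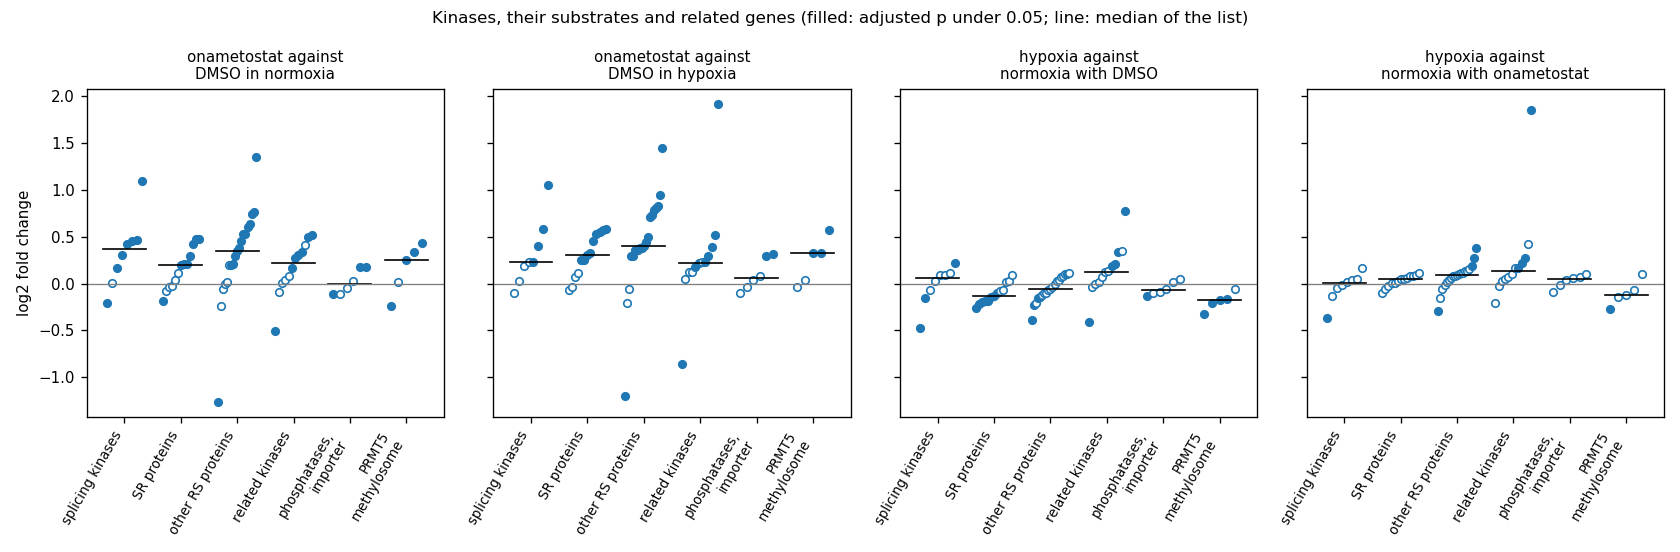
Log2 fold changes of the 8 kinases and of the genes of 5 lists (points, filled for an adjusted p under 0.05) in the 4 comparisons, with a line at the median of each list. The medians of the SR proteins lie at 0.19 and 0.31 with onametostat and at -0.13 in hypoxia with DMSO, U2AF1 and ZRANB2 are the highest and lowest points of the other proteins with arginine-serine (RS) repeats in normoxia, and the point near 1.9 among related kinases is HIPK2, whose value rests on library 3 of onametostat in hypoxia.

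Of 12 related kinases measured, 6 rose and 1 fell with onametostat in normoxia, and 7 rose and 1 fell in hypoxia. The total past the test in normoxia was near the share of all genes, 56.5%, of which 27.2% rose, and in hypoxia 52.0% of all genes passed and 25.6% rose. CDK11B, a cyclin-dependent kinase of the splicing machinery, rose by 0.52 in each, a value that is uncertain because its near-identical copy CDK11A shares reads with it. DYRK1B, the closest relative of DYRK1A, went the other way. It fell by 0.51 in normoxia (SE 0.119, adjusted p = 0.00155) and by 0.86 in hypoxia (SE 0.138, adjusted p = 6.17e-05), from 6.19 ± 0.505 to 4.38 ± 0.712 CPM in the former. In hypoxia with onametostat it had 5.60, 5.98 and 13.5 CPM, the last in library 3 with its few counts, which lay above the DMSO libraries. Without that library the log2 fold change of DYRK1B in hypoxia was -0.89 (SE 0.134, adjusted p = 9.20e-06). It rose by 0.77 in hypoxia with DMSO (adjusted p = 3.81e-05), to 10.6 ± 0.361 CPM. HIPK2 had 704 and 617 CPM in libraries 1 and 2 of onametostat in hypoxia and 4816 CPM in library 3. Its log2 fold change with onametostat in hypoxia was 1.91 (SE 0.504) with this library and 0.37 (SE 0.0747, adjusted p = 2.85e-04) without it, and the hypoxia effect with onametostat was 1.85 with it and 0.31 without it.

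Among the phosphatases that act on SR proteins and the importer transportin-SR (TNPO3), 2 of 6 genes rose and 1 fell in normoxia, and 2 rose and 0 fell in hypoxia, no larger a share than the 56.5% and 52.0% of all genes past the test. PPP1R8, a nuclear subunit of protein phosphatase 1, rose by 0.18 and 0.32, and PPP1CC, a catalytic subunit, by 0.18 and 0.29. TNPO3 had values of 0.03 and 0.08 and did not pass. Of 6 other genes known for retained introns or poison exons, 2 rose and 1 fell in normoxia, and 2 rose and 2 fell in hypoxia, beside the same shares of all genes. SNRNP70, a protein of the U1 snRNP, rose by 0.35 and 0.44, HNRNPD rose by 0.16 and 0.26, and HNRNPDL fell by 0.35 and 0.14. PRMT5, the target of the inhibitor, rose by 0.43 (adjusted p = 4.41e-08) and 0.32 (adjusted p = 9.41e-06), from 65.2 ± 0.645 to 87.5 ± 2.37 CPM in normoxia. Of its partners in the methylosome, COPRS and RIOK1 rose at both oxygen levels, and WDR77 fell by 0.24 in normoxia.

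The genes most like each kinase were taken by Pearson's r of log2 CPM over the 11 libraries other than library 3 of onametostat in hypoxia, out of 11766 other genes whose log2 CPM averaged 1 or more. These values describe points that share libraries and fall into treated and control groups. For PRPF4B they were DHX16, PTBP2 and PRPF38B, each with r = 0.995. For DYRK1A they were GOLGA4 (r = 0.996), UBA3 (0.992) and NCOA6 (0.991), and for CLK2 GNB3 (0.983), CAPRIN2 (0.979) and GUSBP1 (0.976). The highest r was 0.962 for CLK1 (WASL), 0.966 for CLK3 (MFSD2A), 0.970 for CLK4 (KRIT1) and 0.960 for SRPK1 (TRIM14). For SRPK2, whose level moved least, it was 0.845 (GET4). These values depended on the library left out: with all 12 libraries r was 0.870 for CLK1 and WASL, 0.752 for CLK3 and MFSD2A, 0.636 for CLK4 and KRIT1, 0.471 for SRPK1 and TRIM14 and 0.949 for SRPK2 and GET4. For the genes named with PRPF4B it was 0.939 to 0.995, with DYRK1A 0.721 to 0.941 and with CLK2 0.886 to 0.914.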

How the data were processed

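Per the study's methods, fastp was used for trimming, STAR for alignment, featureCounts with its defaults for counting and filterByExpr of edgeR to drop weak genes. The deposited table, named as normalized, holds raw counts: whole numbers to which the authors applied no scaling. For the alignment the submitters' processing notes give GRCh37 and STAR 2.7.10a, whereas the methods give GRCh38. Positions here are those of GENCODE on GRCh38. The methods and the labels also differ in the RNA input per library. The kit marks strand, and the counting did not use it.

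Tests ran in R 4.3.3 with edgeR 4.0.16 (TMM, quasi-likelihood test, 1 fit of 4 groups over 12 libraries, 14698 genes, no further filter). Standard errors come from the fold change and the F statistic, and edgeR replaces the p-value by a larger Poisson one where that applies, so interval and p can differ. Alternatives were DESeq2 1.42.0, limma 3.58.1 (voom), RLE factors, library sizes alone, the compared groups alone, a filter of CPM above 1 in at least 3 libraries, an absolute log2 fold change above 1, a replicate block, and leaving out each library in turn or libraries 2 and 3 of onametostat in hypoxia together. For genes of the lists these alternatives were chosen after seeing the data. The tests were checked on data with known changes. Figures were drawn with matplotlib 3.10.9.

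The kinases and lists were chosen with earlier results of these data known. Named were all kinases, up to 4 genes per list and comparison with the largest change past the test, and for each kinase its most alike genes. TRA2A, SRSF10, TNPO3, VIM and LHFPL5 fall outside this rule and were named after their values were seen. Motifs were searched in 250 bases before a RefSeq transcript start, with log2 CPM computed with a prior count of 2. Total counts were 403279 to 45977729. Where a count was 0, up to 3 counts are possible.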

Additional observations from a re-analysis of the deposited data

Results flagged for a closer look

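The effect of onametostat differed between the oxygen levels for 2 genes of the lists, by the interaction test of edgeR. THRAP3, which encodes a protein with arginine-serine repeats, differed by 0.38 on the log2 scale (SE 0.066, adjusted p = 0.0260), with a change of -0.01 in normoxia and 0.38 in hypoxia. Without library 3 of onametostat in hypoxia the difference was 0.41 (adjusted p = 9.36e-04), and with library sizes alone it was 0.34 (adjusted p = 0.0730). NDRG1, a gene known to respond to low oxygen, differed by -0.71 (SE 0.081, adjusted p = 0.00141), with 0.19 in normoxia and -0.52 in hypoxia. Its level was 891 ± 49.8 CPM with DMSO in hypoxia and 617 ± 32.7 CPM with onametostat in hypoxia (SD, n = 3). None of the 8 kinases met this test, and groups of 3 libraries are too small for a check of single outlying values.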

How the results depend on the processing

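Under DESeq2, RLE scaling, no scaling beyond library size, limma voom, the compared groups alone and the filter on low CPM, the kinase calls kept their side of the threshold, except that CLK3 was lost in normoxia with DESeq2, CLK2 was lost for hypoxia with onametostat with limma voom and the compared groups alone, and for onametostat in hypoxia SRPK1 was gained with RLE scaling and library sizes alone and CLK4 with limma voom (adjusted p = 0.0328) and the filter on low CPM (adjusted p = 0.0443). With an absolute log2 fold change above 1 as a further condition, 1, 1, 0 and 0 kinases and 898, 1104, 122 and 107 genes passed for onametostat in normoxia, onametostat in hypoxia, hypoxia with DMSO and hypoxia with onametostat, and 3 genes in the interaction. For hypoxia with onametostat, limma voom and the compared groups alone gave 0 kinases, and DESeq2 and the compared groups alone gave 1305 and 1206 genes in place of 2036. For the interaction DESeq2 gave 126 and limma voom 181 genes in place of 73.

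Leaving out single libraries gave 6 to 7, 3 to 6, 2 to 3 and 0 to 2 kinases and 7288 to 8704, 5468 to 7899, 2696 to 4813 and 586 to 2285 genes in the same order, and 0 kinases and 1 to 183 genes in the interaction. The 586 genes were those without library 1 of onametostat in hypoxia, which leaves library 3, with its few counts, beside library 2. The 2696 genes were those without library 2 of DMSO in normoxia.

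Signs turned only for values that did not pass. SRPK2 with onametostat in normoxia was -0.0044 under DESeq2 and RLE factors, -0.027 with library sizes alone and -1.3e-05 with limma voom, and -0.023 to 0.019 when single libraries were left out. In hypoxia it was -0.042 with library sizes alone, and its interaction -0.015 with library sizes alone and -0.0019 to 0.053 when single libraries were left out. For hypoxia with onametostat, CLK4 was -0.0017 with library sizes alone, -0.0081 with limma voom and -0.0018 with the compared groups alone, and CLK4 and CLK3 spanned -0.037 to 0.072 and -0.053 to 0.053 when single libraries were left out. With libraries 2 and 3 of onametostat in hypoxia left out together, this comparison gave 0.016 for CLK3, -0.021 for CLK4 and -0.0038 for PRPF4B, and the interaction of DYRK1A was 0.0039. The interactions of CLK2 and PRPF4B spanned -0.043 to 0.20 and -0.077 to 0.011 when single libraries were left out.

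The labels give each library of a condition an experiment number from 1 to 3, so a number may stand for an experiment shared between conditions. Same-numbered libraries deviated from their group means with correlations of -0.15 to 0.11, with 1 of 18 pairs over 0.1. The main fit does not pair the libraries, although such low correlations do not exclude shared experiments. With the number as a replicate block, 7, 4, 3 and 0 kinases and 8435, 7441, 4293 and 1926 genes passed in the same order as above, and 83 genes in the interaction. CLK2 in hypoxia with onametostat had an adjusted p of 0.0553 with the block.

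The limit set by few counts lies in library 3 of onametostat in hypoxia, where 3 counts are 7.44 CPM, close to the level of CLK1. This library also differed from the others of its condition beyond counting error. Fold changes that include this condition are less certain for CLK1, CLK2 and CLK4, which had 4, 10 and 14 counts there. Gene counts cannot show which transcripts of a kinase changed.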
